A study of Mus musculus with 4 samples.

Results

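The proteasome activators and the assembly chaperones of the 20S proteasome were examined as a set of 9 genes out of the 30049 Ensembl genes in the table of transcript abundances. They are the activator genes Psme1, Psme2, Psme3 and Psme4 and the chaperone genes Psmg1, Psmg2, Psmg3, Psmg4 and Pomp. They were listed by name for what their proteins do, and all 9 names were found in the table. The list was drawn up with results of the same libraries known, among them the low level of Psme3 after DMSO. The differences of these 9 genes between the groups are therefore given as a description, without p-values of single genes. Counts of calls among them are no test of a difference.

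Wild-type mouse zygotes of adult BDF1 parents (BDF1 is the first-generation cross of C57BL/6 and DBA/2, so the embryos are BDF1*BDF1 F2) were cultured from 18 h after the injection of hCG, the hormone that triggers ovulation. They were kept for 24 h in the embryo medium KSOM, either as it was (control) or with 2% dimethyl sulfoxide (DMSO), a solvent widely used for drugs and for freezing cells. RNA of embryos that had reached the 2-cell stage was sequenced, 50 embryos being pooled for each group (it is not stated whether for each library). Each group had 2 libraries, and the labels do not say whether the libraries of a group came from separate cultures. Values are TPM, a transcript abundance relative to transcript length and to the total of a library, so levels of different genes can be compared per length but sequencing depth is not kept. Where a group has 2 values in a sentence, they are those of replicate 1 and then replicate 2. In pooled embryos, fewer cells of a kind and less RNA in each cell cannot be told apart.

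The 20S proteasome is a barrel of stacked rings of alpha and beta subunits whose inner chamber cuts proteins. It is closed at its ends until an activator binds. The 19S regulatory particle is the activator for ubiquitin-tagged proteins, and the activators examined here open the barrel without ubiquitin. Psme1 and Psme2 encode PA28alpha and PA28beta, which form one ring together and are known from antigen processing. Psme3 encodes PA28gamma, which forms a ring of its own in the nucleus, and Psme4 encodes PA200, a single large chain linked to the breakdown of acetylated histones and to spermatogenesis. The chaperones Psmg1 with Psmg2 and Psmg3 with Psmg4 work as pairs on the ring of alpha subunits. Pomp then guides the beta subunits into place and is degraded by the finished proteasome.

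The libraries carried the RNA of early embryos. Dppa3, a maternal gene of the oocyte and cleavage embryo, was at 11639 and 15346 TPM in controls and at 10828 and 15216 TPM under DMSO. Of 10 genes activated at the 2-cell stage all were detected, with a summed level of 887 and 638 TPM in controls and of 2457 and 1713 TPM under DMSO, and limma called 4 of them higher (Zfp352, Usp17lc, Tcstv1 and Tcstv3), beside 6.42% of all genes tested. The 10 oocyte genes summed to 1185 and 770 TPM in controls and to 2936 and 2265 TPM under DMSO, and of the 9 tested 2 were called higher (Oosp1 and Bmp15). Their most abundant gene Oosp1 was at 877 and 576 TPM in controls and at 2086 and 1763 TPM under DMSO. The egg gene Nlrp5 was at most 0.142 TPM in any library. Markers of cumulus and granulosa cells, which surround the egg, were near 0. Amh and Inhba were at 0 in all libraries, and the 14 markers summed to 3.73 and 2.77 TPM in controls and to 5.07 and 4.23 TPM under DMSO, the most abundant, Cyp11a1, being at most 2.10 TPM in any library. Mitochondrial genes took up 10.8% and 12.4% of the summed TPM of the listed genes in controls and 15.3% and 21.7% under DMSO. The part of these differences in the results was not tested, but the fold changes and calls were also computed with mitochondrial genes taken out of the total.

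The activators did not move as one group. Psme3 and Psme1 were far lower in DMSO-treated embryos, Psme2 was lower by less, and Psme4 was at the level of the controls. The chaperones were divided in the same way, with Psmg3, Pomp and Psmg2 lower, Psmg4 overlapping between the groups and Psmg1 barely detected. In all, 6 of the 9 genes were lower in both DMSO libraries than in both control libraries, 2 were higher in both (Psme4 by less than the digits printed here, and Psmg1 near 0), and 1 overlapped. Among the 12038 genes averaging 1 TPM or more, both DMSO libraries lay below both control libraries for 38.7% and above both for 31.1%. The median log2 fold change of the 9 genes was -1.33, beside -0.09 for all genes tested, on the scale of log2(TPM + 1).

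**Figure D1:**
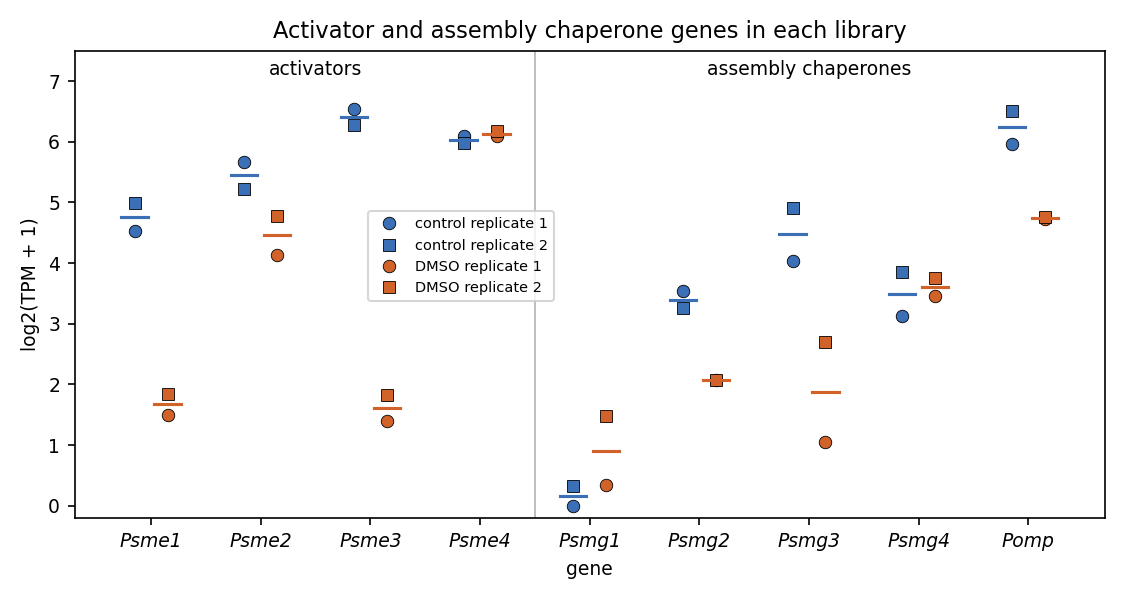
Level of each of the 9 genes, as log2(TPM + 1), in the 2 control libraries (blue) and the 2 DMSO libraries (orange), with circles for replicate 1, squares for replicate 2 and bars for group means. Psme3 and Psme1 drop from the upper part of the plot to the bottom, and Psme4 and Psmg4 stay level. Psmg1 is close to 0 except in DMSO replicate 2, where it is at 1.48.

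Psme3 (ENSMUSG00000078652, GRCm38 chr11:101316213-101323537, plus strand) had the highest mean of the 9 genes in control embryos, though Pomp was above it in control replicate 2. It was at 92.3 and 76.1 TPM in controls and at 1.62 and 2.56 TPM under DMSO. The DMSO libraries were low together, and no value came near those of the controls. The mean went from 84.2 ± 11.5 TPM (SD, n = 2) to 2.09 ± 0.662 TPM (SD, n = 2), which is 2.48% of the control mean. The log2 fold change on log2(TPM + 1) was -4.80 (standard error 0.31), the 4th lowest of the 12038 genes tested. With a pseudocount of 0.1 TPM it was -5.29, since adding 1 TPM understates the change of low values. The transcripts of Psme3 share no 31-base word with transcripts of another gene.

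Psme1 and Psme2 lie close together on chromosome 14. Psme1 (ENSMUSG00000022216, chr14:55578123-55581529, plus strand) was at 22.1 and 30.9 TPM in controls and at 1.83 and 2.60 TPM under DMSO. Its mean in DMSO-treated embryos was 8.34% of that in controls, with a fold change of -3.09 on the log2 scale (standard error 0.34). Psme2 (ENSMUSG00000079197, chr14:55587441-55591113, minus strand) was at 49.9 and 36.3 TPM in controls and at 16.6 and 26.5 TPM under DMSO. The groups did not overlap, but the gap between control replicate 2 and DMSO replicate 2 was smaller than the gap between the replicates of the control group. Its log2 fold change was -0.99 (standard error 0.34). Although their proteins form one ring, the transcripts of this pair were thus lower to an unequal extent. The level of Psme2 over that of Psme1 was 2.26 and 1.17 in controls and 9.06 and 10.2 under DMSO. Part of Psme2 is not distinct in sequence. Of its 31-base words 33.5% also occur in Psme2b, a second gene of the same kind on chromosome 11, which was listed at 0.281 and 0.354 TPM in controls and at 0 in both DMSO libraries. Of the words of Psme1 9.51% occur in other genes, all of them processed pseudogenes, of which Gm7776 was at most 0.900 TPM in any library.

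Psme4 (ENSMUSG00000040850, chr11:30771726-30880361, plus strand) stood apart from the PA28 genes. It was at 67.3 and 62.1 TPM in controls and at 67.3 and 71.2 TPM under DMSO. The lowest DMSO value equalled the highest control value to 3 digits, and the whole range of the 4 libraries was narrow. Its log2 fold change was 0.10 (standard error 0.25), and with quantile normalization it was 0.39. No word of its transcripts is shared with another gene.

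The make-up of the activator transcripts therefore differed between the groups. The 4 genes summed to 232 and 205 TPM in controls and to 87.3 and 103 TPM under DMSO. Psme3 held 39.9% and 37.0% of this sum in controls and 1.86% and 2.49% under DMSO. Psme4 held 29.1% and 30.2% in controls and 77.1% and 69.2% under DMSO. The share of Psme1 went from 9.54% and 15.1% to 2.09% and 2.52%, while that of Psme2 overlapped, at 21.6% and 17.7% in controls and 18.97% and 25.8% under DMSO. Per 1 transcript of Psme3 there were 0.729 and 0.816 of Psme4 in controls and 41.5 and 27.8 under DMSO.

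**Figure D2:**
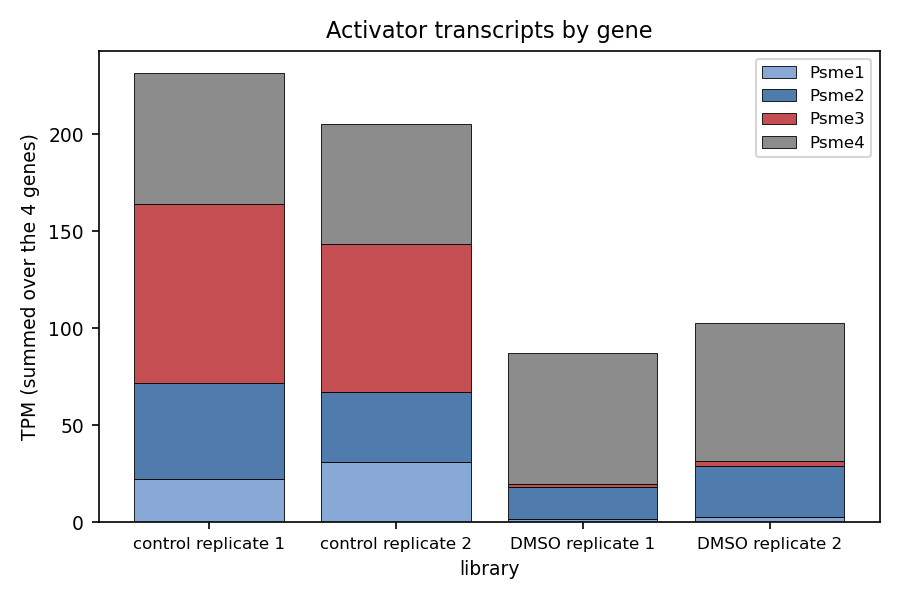
TPM of the 4 activator genes stacked in each of the 4 libraries, 1 bar per library with the axis starting at 0. The sum is 232 and 205 TPM in controls and 87.3 and 103 TPM under DMSO, where nearly all of the red band of Psme3 is gone and the grey band of Psme4 keeps its height.

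The stretch of 250 bases before the start of the RefSeq gene was compared for Psme3 and Psme1, the activators with the lowest fold changes, and for Psme4, which did not share them. The sequences are those of RefSeq on GRCm38.p6, 5′ to 3′ on the strand of each gene. Capitals mark motif letters, read on both strands. The site of ETS factors was searched as CCGGAAG. The E-box, bound by basic helix-loop-helix factors, was searched as CACGTG. The CCAAT box, bound by NF-Y, was searched by the letters of its name. The GC box, bound by Sp1 and its relatives, was searched as GGGCGG. The windows are chr11:101315963-101316212 for Psme3, chr14:55578244-55578493 for Psme1 and chr11:30771525-30771774 for Psme4. RefSeq and GENCODE place the starts of some genes differently. The window of Psme3 ends where its GENCODE span begins, that of Psme4 runs past the GENCODE start, and that of Psme1 lies wholly inside the GENCODE span.
Psme3: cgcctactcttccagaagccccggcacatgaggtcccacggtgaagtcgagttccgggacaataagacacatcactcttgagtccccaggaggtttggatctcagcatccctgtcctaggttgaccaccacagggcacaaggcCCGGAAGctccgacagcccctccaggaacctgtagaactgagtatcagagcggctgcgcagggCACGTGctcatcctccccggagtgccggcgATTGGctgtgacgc
Psme1: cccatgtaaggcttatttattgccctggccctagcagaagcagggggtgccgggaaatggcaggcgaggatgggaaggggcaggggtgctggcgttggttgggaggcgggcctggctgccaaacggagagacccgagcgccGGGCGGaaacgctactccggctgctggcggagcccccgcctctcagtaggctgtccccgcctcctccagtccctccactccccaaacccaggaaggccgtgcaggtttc
Psme4: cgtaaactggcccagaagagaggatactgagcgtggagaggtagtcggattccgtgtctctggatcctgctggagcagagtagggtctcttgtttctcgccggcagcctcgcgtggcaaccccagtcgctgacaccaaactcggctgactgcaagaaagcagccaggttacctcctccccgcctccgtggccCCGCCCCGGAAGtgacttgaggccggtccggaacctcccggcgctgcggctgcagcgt
In Psme3 the capitals are an ETS site, an E-box and a CCAAT box on the opposite strand. In Psme1 they are a GC box, and in Psme4 a GC box on the opposite strand and an ETS site that overlap by 1 base. Windows of 8 of the 9 genes, all but Psmg2, were searched. The ETS letters occurred in 4 of these 8 (Psme3, Psme4, Psmg1 and Pomp) and in 6.95% of all 32536 windows, and the GC box in 5 of 8 and in 33.0% of all windows. The E-box and the CCAAT box occurred in Psme3 alone among the 8 and in 6.04% and 33.8% of all windows. The letters of the antioxidant response element (TGACNNNGC), the site of the proteasome gene regulators Nfe2l1 and Nfe2l2, were in 0 of the 8 windows and in 10.2% of all windows. Those of an interferon response element were in 0 of 8 and in 2.98%, and a TATA box (TATAAA) in 0 of 8 and in 12.3%. The windows of the 8 genes ran from 49.2% G and C bases (Psmg3) to 70.4% (Pomp), beside a median of 52.4% over all windows. Only that of Psmg3 was below this median, and the shares over all windows were not matched for composition. A match of letters is a description and not a site of binding, and a window without the letters says nothing of the factor.

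Among the chaperones, Pomp was the most abundant and supplied over 50% of the summed TPM of the 5 genes in every library. Pomp (ENSMUSG00000029649, chr5:147860461-147876456, plus strand) was at 61.7 and 89.8 TPM in controls and at 25.4 and 26.2 TPM under DMSO. The DMSO libraries were almost equal, at 34.0% of the control mean, and the log2 fold change was -1.49 (standard error 0.29). Pomp accompanies the beta subunits of the 20S, and its level was 36.6% and 39.6% of their mean TPM in controls and 27.3% and 23.3% under DMSO.

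Psmg3 (ENSMUSG00000029551, chr5:139823592-139826885, minus strand) was at 15.3 and 29.2 TPM in controls and at 1.08 and 5.52 TPM under DMSO. Both DMSO values were below both control values, but the replicates of each group lay far apart. The log2 fold change of -2.59 had the largest standard error of the 8 tested genes, 0.59, and it ran from -3.42 without DMSO replicate 2 to -1.77 without DMSO replicate 1. Its annotated span overlaps that of Gm26938, with which it shares 8.56% of its 31-base words, and Gm26938 was listed at 0 in all libraries. Psmg4 (ENSMUSG00000071451, chr13:34162964-34178173, plus strand), the partner of Psmg3, was at 7.77 and 13.4 TPM in controls and at 9.95 and 12.5 TPM under DMSO. The groups overlapped, with a fold change of 0.11 on the log2 scale (standard error 0.36) that turned to -0.24 without control replicate 1. The level of Psmg3 over that of Psmg4 was 1.97 and 2.18 in controls and 0.108 and 0.442 under DMSO, so that the order of the partners was turned.

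Psmg2 (ENSMUSG00000024537, chr18:67641599-67654162, plus strand) was at 10.7 and 8.53 TPM in controls and at 3.20 and 3.19 TPM under DMSO. The groups were well apart, with a fold change of -1.33 on the log2 scale (standard error 0.32). Its partner Psmg1 (ENSMUSG00000022913, chr16:95979933-95990960, minus strand) was listed at 0 and 0.257 TPM in controls and at 0.260 and 1.80 TPM under DMSO. Only DMSO replicate 2 was above 1 TPM, the mean over the libraries of 0.579 TPM was under the minimum of 1 TPM for testing, and its difference of 0.74 on log2(TPM + 1) rests on values near 0. Psmg1 was below Psmg2 in all 4 libraries, and nearest to it in DMSO replicate 2.

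The order of levels was changed as well. In control embryos it ran from Psme3 through Pomp, Psme4, Psme2, Psme1, Psmg3, Psmg4 and Psmg2 to Psmg1. The ranges of neighbours overlapped for Psme3 and Pomp, Pomp and Psme4, Psme1 and Psmg3, and Psmg4 and Psmg2, so these pairs do not differ beyond their spread. In DMSO-treated embryos Psme4 came first at 69.2 ± 2.75 TPM (SD, n = 2), clear of Pomp at 25.8 ± 0.575 TPM (SD, n = 2). It was followed by Pomp and Psme2, whose ranges overlapped, then by Psmg4, and by Psmg3 and Psmg2, whose ranges overlapped as well. Psme1, Psme3 and Psmg1 came last with overlapping ranges of neighbours.

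Across the whole table, limma, a linear model with variances moderated across genes, called 2470 of 12038 genes at an adjusted p-value under 0.05 (Benjamini-Hochberg). That is 20.5% of the genes tested, 14.1% being lower and 6.42% higher in DMSO-treated embryos. Of the 9 genes 8 were tested, and 5 of them (Psme3, Psme1, Psmg3, Pomp and Psmg2) were called, all lower. Nothing is read from this count, since the comparison was known when the genes were listed. The 31.3% of calls that were higher became 42.9% with median-ratio scaling, 49.0% with quantile normalization and 40.4% without mitochondrial genes, and the same 5 genes were called under each of these. The calls rested on the filter and on single libraries. With no filter on low values limma called 0 of 22257 genes, 5368 having an unadjusted p-value under 0.05. Without control replicate 1, control replicate 2 or DMSO replicate 1, limma called 0 of 12038 genes, although 3745, 2602 and 3078 had an unadjusted p-value under 0.05, and without DMSO replicate 2 it called 1883 genes, 4 of the 9 among them (Psmg2 was lost). In these fits the lone library is assumed to vary like the pair of the other group.

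**Figure D3:**
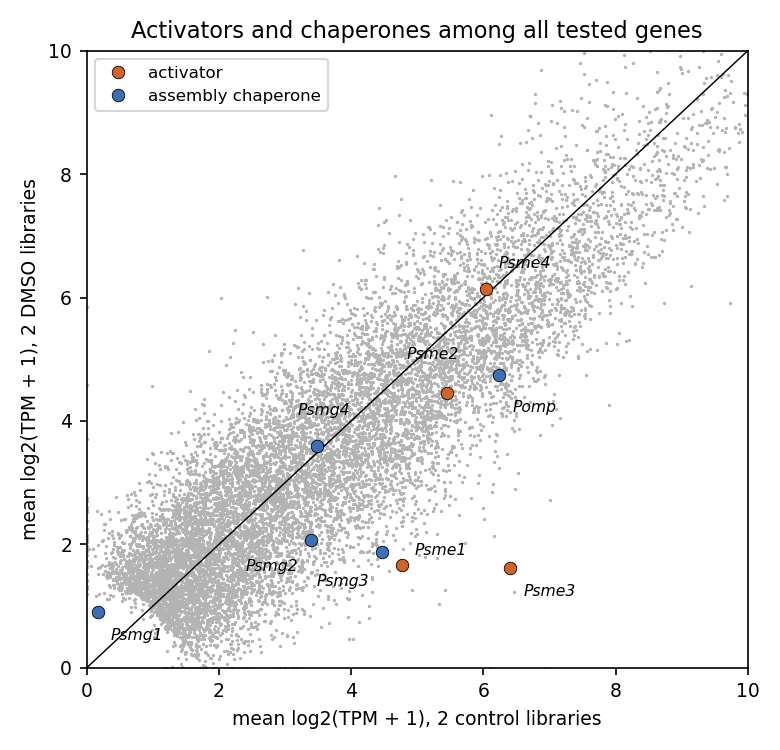
Mean log2(TPM + 1) of the 2 control libraries (x axis) and the 2 DMSO libraries (y axis) for the 12038 genes tested (grey) and for the activators (orange) and chaperones (blue), with the line of equal level; 116 genes above 10 on an axis are not drawn. Psme3 lies at the lower edge of the cloud for its control level, and Psme4 and Psmg4 lie on the line.

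By the distance between centred log2(TPM + 1) values over the 4 libraries, among 5667 genes averaging 10 TPM or more, the genes most like Psme3 were the processed pseudogene Gm7334 (distance 0.90), Arl14ep (1.07) and Arhgdig (1.18). Arl14ep was at 67.2 and 74.4 TPM in controls and at 1.72 and 6.14 TPM under DMSO. Arhgdig was at 27.1 and 31.8 TPM and at 0.971 and 1.88 TPM. Psmg1, which had the highest difference of the 9 genes, has values too low for such a comparison to be of use. Its nearest genes, Ddx39, Tmsb10 and Pmf1 (distances 0.23, 0.25 and 0.30), were all more abundant, Ddx39 being at 16.9 and 26.2 TPM in controls and at 22.8 and 48.7 TPM under DMSO.

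The particles on which the activators and chaperones act were compared in the same fit, from lists of other pathway genes set by function. Some of these genes are among those the study had picked as changed from the same libraries, and earlier results on the core subunits were known, so the counts are not independent evidence of a direction. Of the 33 subunits of the 20S core and the 19S particle 31 had lower means with DMSO and 2 had higher means, the median log2 fold change being -1.18. limma called 16 of them, all lower, against 14.1% of all genes tested, a share not matched for level. With a minimum mean of 5 TPM it called 19 of these subunits lower, and 1684 of all 7470 genes tested. The 14 core subunits ran from -2.22 to 0.82 and 7 were called lower. The lowest was the alpha subunit Psma6, at 326 and 373 TPM in controls and at 50.4 and 109 TPM under DMSO (adjusted p = 0.0219 by limma), followed by the beta subunit Psmb4 (-1.87, adjusted p = 0.0228 by limma). The beta subunits Psmb3 and Psmb6 had values of 0.82 and 0.43 and were not called. Of the 19 subunits of the 19S particle 9 were called lower, Psmc4 (-2.61) and Psmd12 (-2.11) having the lowest values among them (adjusted p = 0.0181 by limma for both). Of the 33 subunits limma called 10 lower with quantile normalization, 26 with a replicate block and 0 with no filter on low values. In these fits 1121, 2981 and 0 of all genes tested were called lower. The log2 fold changes of Psme3 and Psme1, -4.80 and -3.09, were below that of every one of these 33 subunits, and that of Psmg3, -2.59, lay next to Psmc4. The difference between the activators and the subunits was not tested, as the activators were listed with their values known. The summed TPM of the 4 activators was 155% and 103% of the mean of a core subunit in controls and 125% and 110% under DMSO, so this ratio overlapped between the groups, as the share of Psme2 in the sum did and those of Psme1, Psme3 and Psme4 did not.

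**Figure D4:**
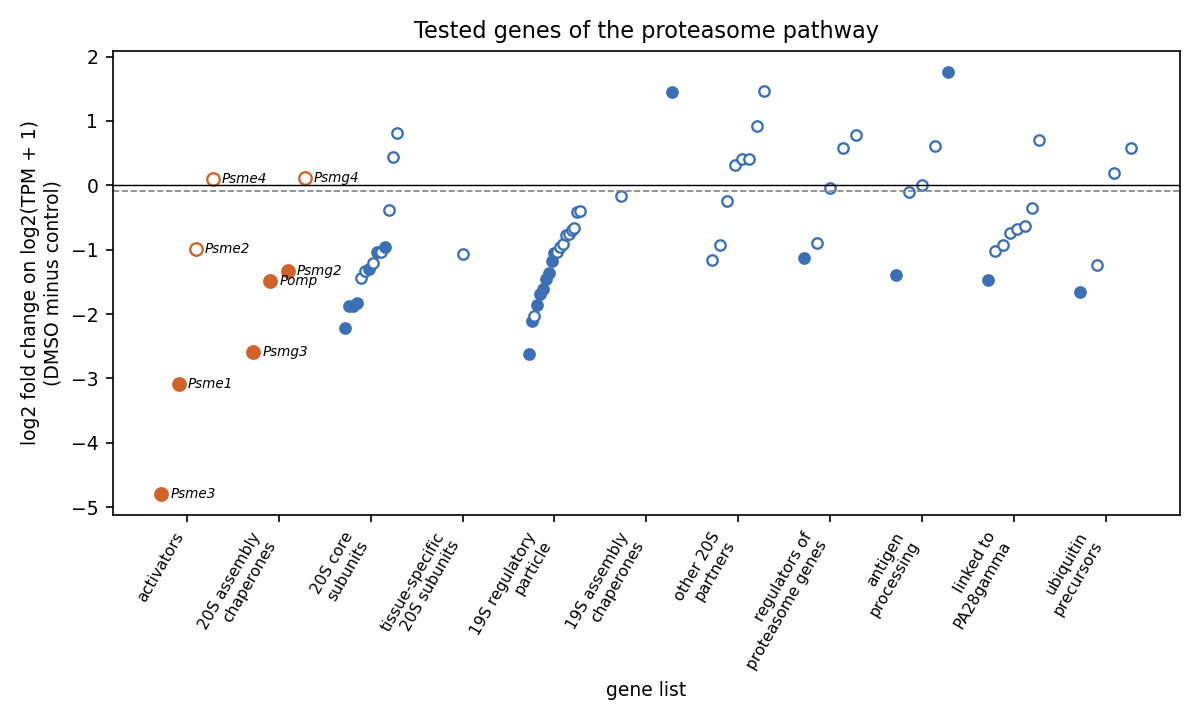
Log2 fold change on log2(TPM + 1), DMSO minus control, of each tested gene by list (activators and 20S chaperones in orange, other pathway lists in blue; filled points were called by limma at an adjusted p-value under 0.05, and Psmg1 was not tested). Calls of the orange points are a description, since these genes were listed with the comparison known. The dashed line is the median of all genes tested, -0.09. Psme3 and Psme1 lie below every other point, and the 19S particle lies wholly below 0.

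The 19S particle has assembly chaperones of its own, of which 2 were tested and 1 was called, beside 20.5% of all genes tested. Of 4 listed, Paaf1 was not found by name, Psmd10 was below 1 TPM on average, and Psmd5 had a fold change of -0.17 on the log2 scale (adjusted p = 0.65 by limma). Psmd9 rose from 15.7 and 11.7 TPM in controls to 46.0 and 32.7 TPM under DMSO (log2 fold change 1.45, SE 0.32, adjusted p = 0.03 by limma). Of 8 tested partners and inhibitors of the 20S limma called 0, with 3 at an unadjusted p-value under 0.05, beside the same 20.5% of all genes. Psmf1, which encodes the proteasome inhibitor PI31, was at 14.4 and 8.19 TPM in controls and at 43.4 and 23.3 TPM under DMSO, a log2 fold change of 1.46 that missed the threshold (adjusted p = 0.0514 by limma). The binding partner of PA28gamma, Psme3ip1 (listed as Fam192a), was at 66.2 and 53.6 TPM and at 36.0 and 26.5 TPM (log2 fold change -0.93, adjusted p = 0.065 by limma). Its difference from Psme3 in size was not tested.

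Of 5 genes that control proteasome transcripts limma called 1, beside 20.5% of all genes tested. Nfe2l1, the factor that raises proteasome genes when the proteasome is inhibited, was at 28.1 and 22.0 TPM in controls and at 23.8 and 24.7 TPM under DMSO, with a fold change of -0.04 on the log2 scale (SE 0.28, adjusted p = 0.932 by limma). Ddi2, the protease that activates Nfe2l1, had a log2 fold change of -0.89 (adjusted p = 0.0577 by limma), and Ngly1, which removes sugar chains from Nfe2l1, had one of 0.78 (adjusted p = 0.15 by limma), with groups apart for both. The gene called was Vcp, the segregase that pulls proteins out of membranes and complexes. It fell from 85.3 and 86.0 TPM to 35.0 and 42.3 TPM (log2 fold change -1.13, adjusted p = 0.0325 by limma).

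PA28alpha and PA28beta are induced by interferon in many cells together with the catalytic subunits of the immunoproteasome, which were scarce here. Of 5 tissue-specific 20S subunits, Psmb10 alone passed the minimum of 1 TPM, and it was not called. Psmb8 was at most 0.303 TPM in any library and Psmb9 at most 1.71 TPM, and Psmb10 was at 1.89 and 3.47 TPM in controls and at 0.346 and 1.21 TPM under DMSO (adjusted p = 0.111 by limma). Of 9 genes of interferon-linked antigen processing 5 were tested, 1 rose and 1 fell, beside 6.42% called higher and 14.1% called lower of all genes tested. Irf1, a transcription factor of this response, rose from 5.29 and 6.62 TPM to 22.7 and 22.3 TPM (log2 fold change 1.76, SE 0.29, adjusted p = 0.0209 by limma), opposite in sign to Psme1 and Psme2. Tpp2, a peptidase that trims proteasome products, fell from 21.3 and 33.9 TPM to 7.81 and 11.9 TPM (adjusted p = 0.0415 by limma). B2m, the light chain of class I antigen-presenting molecules, had a fold change of 0.01 on the log2 scale (adjusted p = 0.987 by limma).

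Of 8 genes whose proteins have been tied to PA28gamma 1 was called lower, beside 14.1% of all genes tested, and their median log2 fold change was -0.71, beside -0.09. The one called was Chek2, a kinase of the DNA damage response, falling from 54.7 and 44.4 TPM to 14.7 and 20.2 TPM (log2 fold change -1.46, adjusted p = 0.0269 by limma). Cdkn1a, the cell cycle inhibitor p21, was at 41.7 and 87.96 TPM in controls and at 35.2 and 39.7 TPM under DMSO (adjusted p = 0.225 by limma). Of the 4 ubiquitin precursor genes Rps27a was the 1 called, beside 20.5% of all genes tested, falling from 368 and 640 TPM to 120 and 197 TPM (log2 fold change -1.65, adjusted p = 0.0321 by limma). The polyubiquitin gene Ubb was at 2450 and 1686 TPM and at 3890 and 2394 TPM, with overlapping groups (adjusted p = 0.23 by limma). Over all lists 66 genes were tested, 20 called lower and 2 higher, beside 14.1% lower and 6.42% higher of all genes tested. Without control replicate 1, control replicate 2 or DMSO replicate 1 limma called 0 of these 66, while 36, 21 and 29 had an unadjusted p-value under 0.05. These are levels of RNA, and neither protein nor proteasome activity was measured in these libraries.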

How the data were processed

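RNA of 50 2-cell embryos per group was amplified with a SMARTer low-input kit and sequenced in 4 libraries, 2 of control and 2 of DMSO-treated embryos, grouped by the sample titles. The authors pseudoaligned reads with kallisto to Ensembl transcripts of GRCm38 (mm10), summed transcripts per gene with tximport and deposited TPM values, which keep no depth. They therefore gave neither a counting error nor a floor. The authors' own test, DESeq2 on counts, cannot be run on TPM. The columns summed to between 768174 and 799166 TPM, and the mitochondrial shares are taken of these sums. Every sample column entered the fit.

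limma 3.58.1 (R 4.3.3) was fitted to log2(TPM + 1) of genes averaging 1 TPM or more (mean-variance trend, two-sided, no replicate block, Benjamini-Hochberg over all genes tested). The fit was tested on simulated data first. With 200 of 12038 genes changed 4-fold it recovered 133 and made 11 false calls, and with 0 changed it made 0. The simulation had far fewer changed genes than the 2470 called here, so it does not give the error of the real fit. The smallest p an exact permutation of 2 against 2 libraries allows is 0.33. P-values measure the spread between these libraries, which may be technical. Names and coordinates came from GENCODE M21 (GRCm38), and shared sequence was counted as 31-base words on either strand. Other steps ran in Python 3.11.15 with pandas 2.3.3, and figures in matplotlib 3.10.9.

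The 9 genes were chosen with earlier results of these data known. The other pathway lists were set by function, with earlier results on part of them known, and their counts and p-values carry this limit. Besides the 9 genes, the rule named from each list at most the 2 called genes with the lowest and the 2 with the highest log2 fold change, other genes of a list needed as background, and the 3 genes nearest in pattern to the members with the lowest and the highest fold change. Genes with lower values that were not called are named for their role. Alternatives were a pseudocount of 0.1, no filter, a mean of at least 5 TPM, no trend, median-ratio and quantile scaling, a replicate block and leaving out each library. Rescaling without mitochondrial genes was added after seeing the data.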

Additional observations from a re-analysis of the deposited data

How the results depend on the processing

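The count of genes called rested on the filter and on single libraries. With no filter on low values limma called 0 of 22257 genes, 0 of the 9 activator and chaperone genes and 0 of the other pathway genes, although 5368, 6 and 36 of them had an unadjusted p-value under 0.05. Leaving out 1 library at a time, with 1 residual degree of freedom, gave between 0 and 1883 genes, between 0 and 4 activator and chaperone genes and between 0 and 26 pathway genes. Of the other pathway genes 22 of 66 were called in the fit reported above, 14 of 66 with quantile normalization and 32 of 61 with a minimum mean of 5 TPM. Of all genes tested 2470 of 12038, 2197 of 12038 and 2450 of 7470 were called in these fits. Under a minimum mean of 5 TPM, a pseudocount of 0.1, no trend, median-ratio scaling, quantile normalization and rescaling without mitochondrial genes, the 5 called among the 9 genes were Psme1, Psme3, Psmg2, Psmg3 and Pomp each time. Nothing is read from these calls, since the genes were listed with the comparison known. The log2 fold changes of Psme1, Psme2, Psme3, Psmg2, Psmg3 and Pomp kept their sign under every alternative run, but most alternatives could not have changed it. Both DMSO libraries lay below both control libraries for these genes, so leaving out a library could not turn the sign. The filters, the fit without a trend and the replicate block leave a fold change as it is. That of Psme3 lay between -5.29 and -4.57, that of Psme1 between -3.52 and -2.86 and that of Psme2 between -1.31 and -0.66. The sign of Psmg4 changed without control replicate 1 and without DMSO replicate 2.

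The groups share replicate numbers, which the labels do not explain. The differences between replicates 1 and 2 correlated across genes between the groups (r = 0.35, genes not being independent), which with 2 pairs does not show that the numbers pair the libraries. A fit with a replicate block called 5132 of all 12038 genes tested, 6 of the 9 genes, Psme2 being added, and 44 of 66 pathway genes. The depth behind a TPM value is unknown, so the low values of Psme1, Psme3 and Psmg1 carry no counting error here.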

Other observations

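The genes next to the activators and chaperones on the chromosome were looked up, taking for each member the protein-coding gene of the table with the nearest start on either side. Psmg2 and Cep76, a centriole gene, start 263 bp apart and run in opposite directions. Cep76 was at 15.0 and 10.5 TPM in controls and at 18.1 and 10.5 TPM under DMSO, a fold change of 0.13 on the log2 scale (adjusted p = 0.80 by limma), beside -1.33 for Psmg2. Psme2 and Rnf31, a subunit of the linear ubiquitin ligase, likewise start 595 bp apart in opposite directions, and Rnf31 had a fold change of -0.67 on the log2 scale (adjusted p = 0.172 by limma). Emc9, which lies between Psme1 and Psme2 and meets the end of Psme1 on the opposite strand, was at 14.6 and 13.9 TPM in controls and at 7.29 and 7.64 TPM under DMSO (adjusted p = 0.0785 by limma). Becn1, an autophagy gene whose start is 13927 bp from that of Psme3, was at 14.5 and 19.04 TPM and at 8.28 and 5.22 TPM (log2 fold change -1.21, adjusted p = 0.0509 by limma), and Aoc2 on the other side was listed at 0 in all libraries. Ptpn2, a phosphatase 82996 bp from Psmg2, fell from 78.3 and 66.5 TPM to 33.2 and 31.4 TPM (log2 fold change -1.14, adjusted p = 0.0326 by limma). Tubb2b, a tubulin gene next to Psmg4, was at 1.23 and 0.169 TPM in controls and at 4.79 and 3.01 TPM under DMSO (log2 fold change 1.58, adjusted p = 0.0493 by limma), and it passed the minimum of 1 TPM only through the DMSO libraries. These were the 2 neighbours called of 11 tested, or 18.2%, beside 20.5% of all genes tested.

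Among markers of other cells, 2 of the 5 sperm and testis genes, Prm2 and Tnp1, passed the minimum of 1 TPM. Both were called higher by limma, beside 6.42% of all genes tested, but Tnp1 passed the minimum only through the DMSO libraries, where it was high. Prm2, a protamine, was at 2.56 and 2.86 TPM in controls and at 11.0 and 6.79 TPM under DMSO (adjusted p = 0.0408 by limma), and Tnp1 was at 0.281 and 0 TPM and at 2.08 and 1.69 TPM (adjusted p = 0.0429 by limma), while Tnp2 was at 0 in all libraries. Acrv1, which was not tested, was at 0.403 and 0.424 TPM in controls and at 0.762 and 1.002 TPM under DMSO. The 5 genes summed to 3.24 and 3.81 TPM in controls and to 14.1 and 9.48 TPM under DMSO. Of the 7 leukocyte markers Adgre1 and Cd3e were at 0 in all libraries, and the macrophage gene Lyz2 reached 9.39 TPM in DMSO replicate 2 beside at most 0.747 TPM in the others. The 7 leukocyte markers summed to 3.91 and 1.40 TPM in controls and to 2.12 and 13.96 TPM under DMSO. The list of 7 later embryo genes also held Dppa3, which is maternal as well and was its most abundant gene. Of these 7 Cdx2 and Sox17 were below 1 TPM in all libraries. The other 5 were tested and limma called 0 of them, beside 20.5% of all genes tested. The part of these genes in the values of the activators and chaperones was not tested.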
